A study of Mus musculus with 12 samples.

Results

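The human RbFox1 eCLIP peaks that lie in dense runs were 2385 of 24831 peaks, 9.60% of the list, in 189 groups. Peaks were sorted along each strand of each chromosome and joined into 1 group while no more than 500 nt separated them, and every peak of a group with 10 or more peaks was taken as a member. The members were therefore chosen by the positions of the peaks called in the comparison of +Dox with No Dox. Their enrichment, p-value and width come from the same comparison, and all of them are given as descriptions without a test. The groups held a median of 12.2 peaks per kb of their span (lowest 5.89, highest 24.4), a density that the rule itself favours.

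RbFox1 is an RNA-binding protein of neurons, heart and skeletal muscle that recognises (U)GCAUG through its RNA recognition motif. In the nucleus it binds mostly introns and changes which exons are joined, and cytoplasmic isoforms bind the ends of mature transcripts. RbFox proteins also work within the LASR complex, whose other proteins bind further short motifs beside the RbFox motif, so places where many binding sites lie side by side have drawn attention. In eCLIP the RNA fragments crosslinked to the protein by ultraviolet light are pulled down with an antibody, sequenced, and gathered into peaks.

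The cells were T-REx-293, a human embryonic kidney line, of the 77-5 clone, which carries the mouse Ntrk2-BAC minigene behind a CAG promoter and makes Rbfox1 from a tetracycline-inducible gene. The groups compared were 2 libraries of 77-5 cells given doxycycline for 48 hours (+Dox) and 2 libraries of untreated 77-5 cells (No Dox), so both carry the minigene and the inducible gene, and all 4 come from 1 clone. The dose is 0.5 mg/ml in the labels and 0.5 μg/ml in the figure legends. A further 2 libraries of the 32-1 clone, whose minigene lacks Cluster 1 and Cluster 2, were also given doxycycline, and the labels of 6 input libraries give no condition. The deposited human list, in hg38 coordinates, gives 1 log2 fold enrichment and 1 −log10 p-value for each peak after replicates were merged. Since it holds neither reads nor values of the separate libraries, the depth and the spread between replicates are unknown, and no difference below was set against replicate error. The lists measure bound RNA and not expression, so kidney cell markers were not read. The groups are named by position, since gene names, gene regions and sequence under the peaks were not analysed here.

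Most dense groups were just past the rule and a few were far past it. Of the 189 groups, 132 held 10 to 12 peaks, 46 held 13 to 19 and 11 held 20 or more. The largest had 54 peaks and the next 35, and after them no group had more than 23. The 67 groups of exactly 10 peaks had a median span of 866 nt and a median log2 fold enrichment over peaks of 3.97, and the 81 groups of exactly 9, just outside the rule, had 810 nt and 4.01. There was thus no step in these values at the limit of 10. Over all 189 groups the span had a median of 970 nt, with quartiles of 800 and 1190 nt, a shortest of 547 and a longest of 3095 nt.

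**Figure D1:**
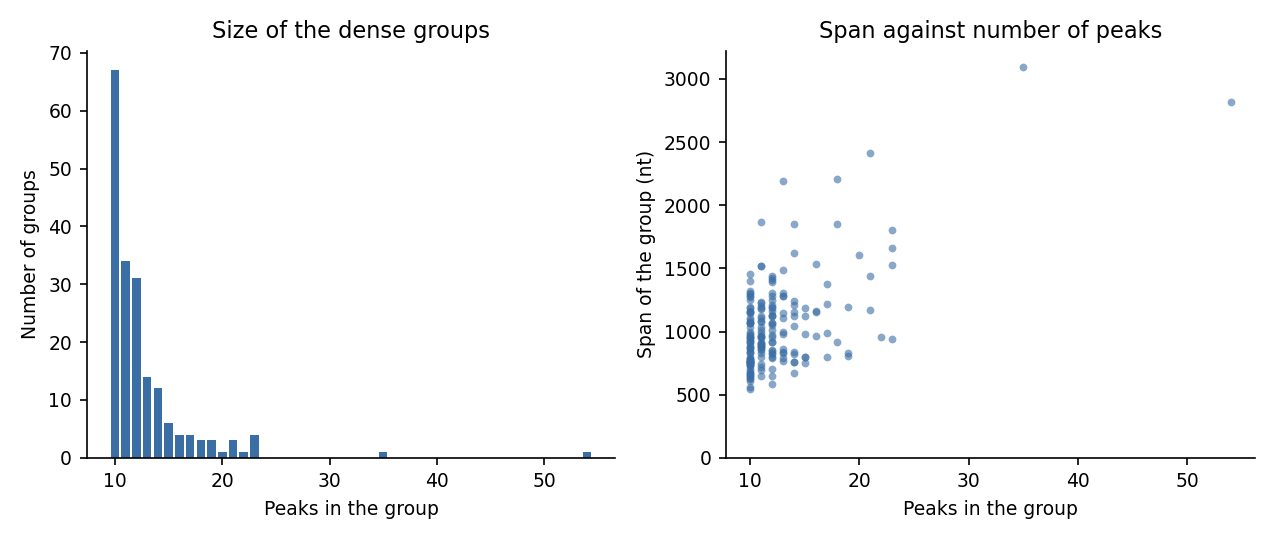
The left panel counts the 189 dense groups (bars) by their number of peaks, and the right panel sets the span of each group in nt (1 point per group) against its number of peaks. The 67 groups of 10 peaks are the most frequent, and the groups of 35 and 54 peaks stand apart on both axes.

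More peaks in a group went with narrower peaks. The median width was 64 nt in groups of 10, 62 nt in groups of 11 or 12, 52 nt in groups of 13 to 15, 49 nt in groups of 16 to 19 and 42 nt in groups of 20 or more. The median spans of the same bands were 866, 985, 1020, 1160 and 1605 nt. The groups with many peaks were thus both longer and cut more finely. Peaks of a group do not overlap, so their number is tied in part to span and width. These values describe the groups, and no relation beyond that tie is read from them. Across the 189 groups, the number of peaks and the median width had a Spearman's rho of -0.46 and a Pearson's r of -0.40, and the number of peaks and the span had 0.36 and 0.61, all from the same libraries.

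The members were the most enriched of the size classes of the list, and the narrowest. Members had a median log2 fold enrichment of 4.08, with quartiles of 3.66 and 4.64, a 17.0-fold excess in +Dox cells. It was 3.80 in the 10566 peaks of groups of 4 to 9, 3.58 in the 7314 peaks of groups of 2 or 3 and 3.45 in the 4566 single peaks. The whole list had a median of 3.68. The order by size thus ran the same way through all 4 classes, with quartile ranges that overlapped between neighbouring classes. The median width fell in the same order, from 98 nt for single peaks to 88, 76 and 57 nt. A rule that counts peaks itself favours narrow ones. Of the members, 162 were under 20 nt wide, and 1 was 1 nt wide.

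**Figure D2:**
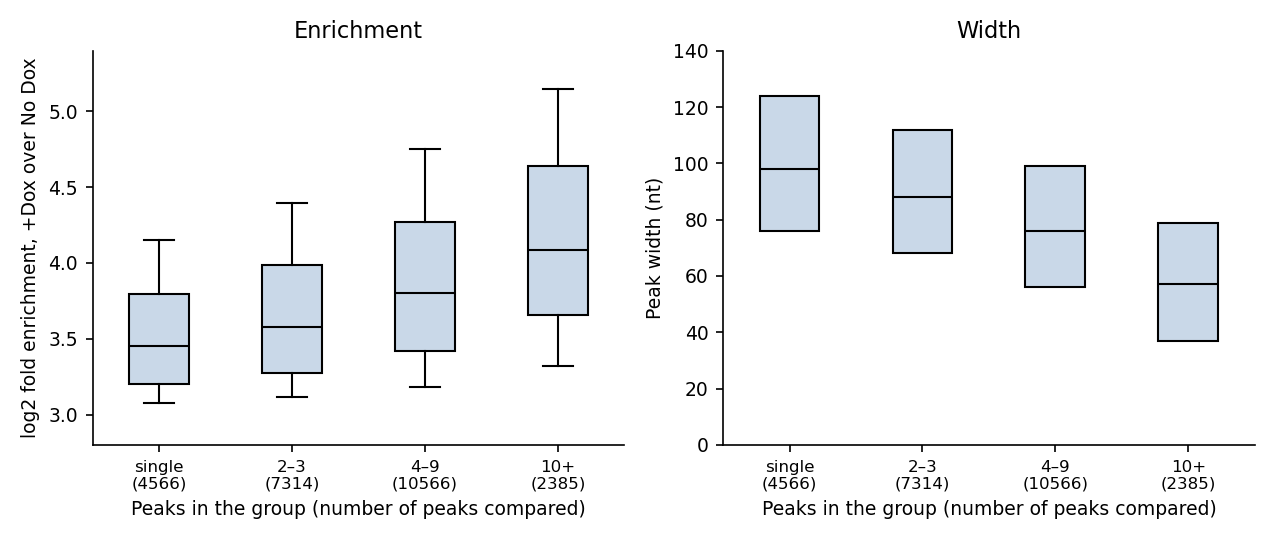
Left, log2 fold enrichment of +Dox over No Dox for peaks by the size of their group, with boxes from quartile to quartile, the median as a line and whiskers at the 10th and 90th percentiles. Right, peak width in nt, with boxes and medians only; the median enrichment rises from 3.45 for single peaks to 4.08 in dense groups while the median width falls from 98 to 57 nt.

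With a call set at 4 or more for the log2 fold enrichment and 1e-05 or less for p, 1307 of the 2385 members were called (54.8%), beside 29.0% of all human peaks. In 15 groups every member was called and in 10 groups none. The share of called members was 47.5% in groups of 10 and 66.4% in groups of 20 or more. In the groups of exactly 9 peaks it was 50.5%, above that of the groups of 10. The rule used this comparison, so nothing is read from these shares.

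Most of the peaks with the highest −log10 p given in the list, 400, lay in the dense groups. A −log10 p of 400 was given to 340 members (14.3%), beside 2.05% of all human peaks, and these 340 were 66.7% of all peaks at that value. The next lower value in the list is 150, and since 400 recurs without a value between, peaks at 400 are given no order among themselves. The 340 lay in 64 groups, and the other 125 groups had none. The group of 54 peaks alone held 46 of them, and without it 12.6% of the other 2331 members were at 400. The median over groups of the group's median log2 fold enrichment was 4.06 in the 64 groups and 4.07 in the 125.

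Among the dense groups, enrichment and p-values hardly went together. Across the 189 groups the median log2 fold enrichment and the median −log10 p had a Spearman's rho of 0.07 and a Pearson's r of -0.04. Values of 400 entered these figures as they stand, beside a next lower value of 150 in the list. Their weight in Pearson's r was not tested. Across the 4 size classes of the list, both rose together. From single peaks to members, the median −log10 p was 5.62, 7.86, 13.1 and 33.3. The p-value rises with the reads in a peak as well as with the enrichment, and reads per peak were not analysed here. In 13 groups at least 50% of the peaks were at 400, and their median enrichments ran from 3.18 to 5.47. In 2 of the 13, both on chromosome 20, every peak was at 400 with a median log2 fold enrichment of 3.18 and 3.24.

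**Figure D3:**
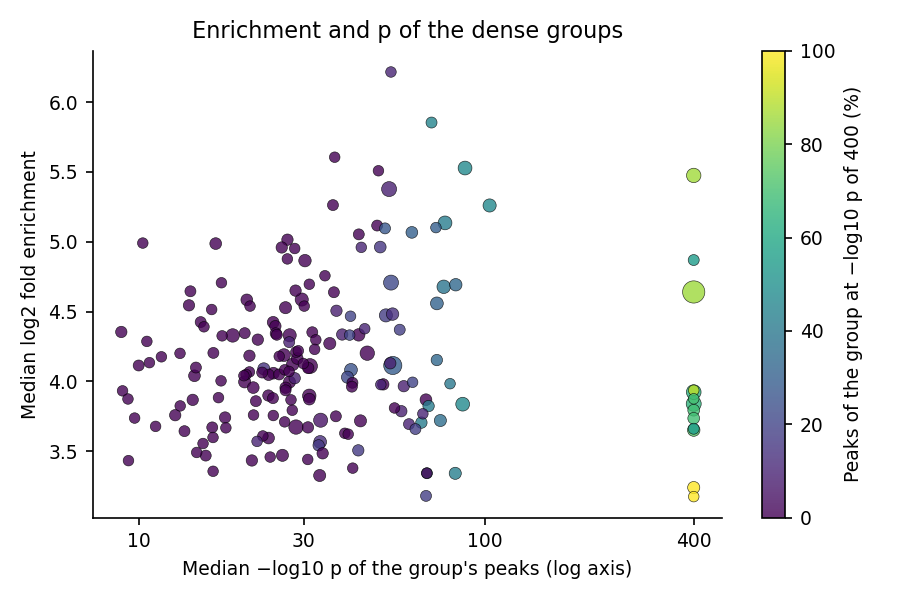
Each point is 1 of the 189 dense groups, with the median −log10 p of its peaks on a log axis, their median log2 fold enrichment on the vertical axis, a size that grows with the number of peaks, and a colour for the share of peaks at a −log10 p of 400. Groups at 400 run from 3.18 to 5.47 in enrichment, and the group with the highest enrichment, 6.22, has a median −log10 p of 53.5.

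The group with the most peaks lies on chromosome 9, + strand, at chr9:131488591-131491410 (hg38), with 54 peaks in 2820 nt. Their log2 fold enrichment ran from 3.84 to 5.47 with a median of 4.64, which is 24.9-fold, and 50 of the 54 were called. Counted in nt from the 5′ end of the group, enrichment climbed over the peaks 3 to 8 from 4.62 to 5.47, an unbroken stretch that ended at 549 after 1 further peak of 5.40. A gap of 358 nt followed, the widest in the group, and the peaks on its far side started low, at 3.97 and 3.84. Further rises reached 5.20 at 1576 and 5.39 at 2225, with a low stretch between them of 3.90 to 4.24 from 1765 to 1908. The 8 peaks under a −log10 p of 400 were the first, the eleventh and 6 near the 3′ end, where peaks of 12 to 35 nt had values of 51.8 to 77.4. The run thus held several summits and not 1 dome.

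The second group by number lies on chromosome 5, − strand, at chr5:852466-855560, with 35 peaks in 3095 nt, the longest span of all. Its enrichment rose and then fell along the RNA, with dips on the way. The first 5 peaks from the 5′ end had 3.05 to 3.34, the peak at 1975 nt had the highest value, 5.06, and the last had 3.74. A −log10 p of 400 was reached by 10 peaks, the first of them 900 nt from the 5′ end. The nearest other peak on its strand was 399893 nt away, so this run had no near neighbour.

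Of the other 9 groups with 20 or more peaks, the most crowded was on chromosome 22, + strand, at chr22:40966790-40967733, with 23 peaks in 944 nt, 24.4 per kb. Its log2 fold enrichment ran from 3.70 to 6.70 with a median of 5.38. It rose from 4.71 at the 5′ end to 6.70 at the tenth peak, fell to 3.70 at the nineteenth and was back at 5.56 in the next. The range within this run was 3.0, beside a median range of 1.53 and a highest of 3.33 over the 189 groups. A group on chromosome 10, − strand, at chr10:71816421-71817373 was almost as crowded, with 22 peaks in 953 nt and a median width of 21 nt, but its median enrichment was 3.92 and its highest 4.62. In that group 14 peaks were at a −log10 p of 400, against 2 of the 23 on chromosome 22.

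Chromosome 1 held a group of 21 peaks, + strand, at chr1:15428768-15429939, in which all 21 were called and 18 were at 400. Its log2 fold enrichment had a median of 5.47, a lowest of 4.25 and a highest of 5.98, the highest median among the groups of 20 or more. On chromosome 10, + strand, chr10:74112146-74113945 held 23 peaks with a median of 4.71. On chromosome 20, + strand, chr20:25285247-25286907 held 23 peaks with a median of 4.11, none of them at 400. Groups of equal number thus differed by over 1 on the log2 scale in their medians.

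The remaining 4 of these groups had medians from 3.67 to 4.20. The group at chr9:88476461-88477899, + strand, had 21 peaks with the lowest median of the 11, 3.67, and only 3 called. The group at chr12:110346320-110347843, + strand, had 23 peaks with a median of 3.84 and 15 at 400, and a further dense group of 12 peaks began 2068 nt downstream. The group at chr17:7879955-7882370, − strand, had 21 peaks with a median of 4.20, and 52.2% of its 2416 nt was covered by peaks. The group at chr22:19036540-19038144, − strand, had 20 peaks with a median of 3.72, and its highest peak stood at 5.43.

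**Figure D4:**
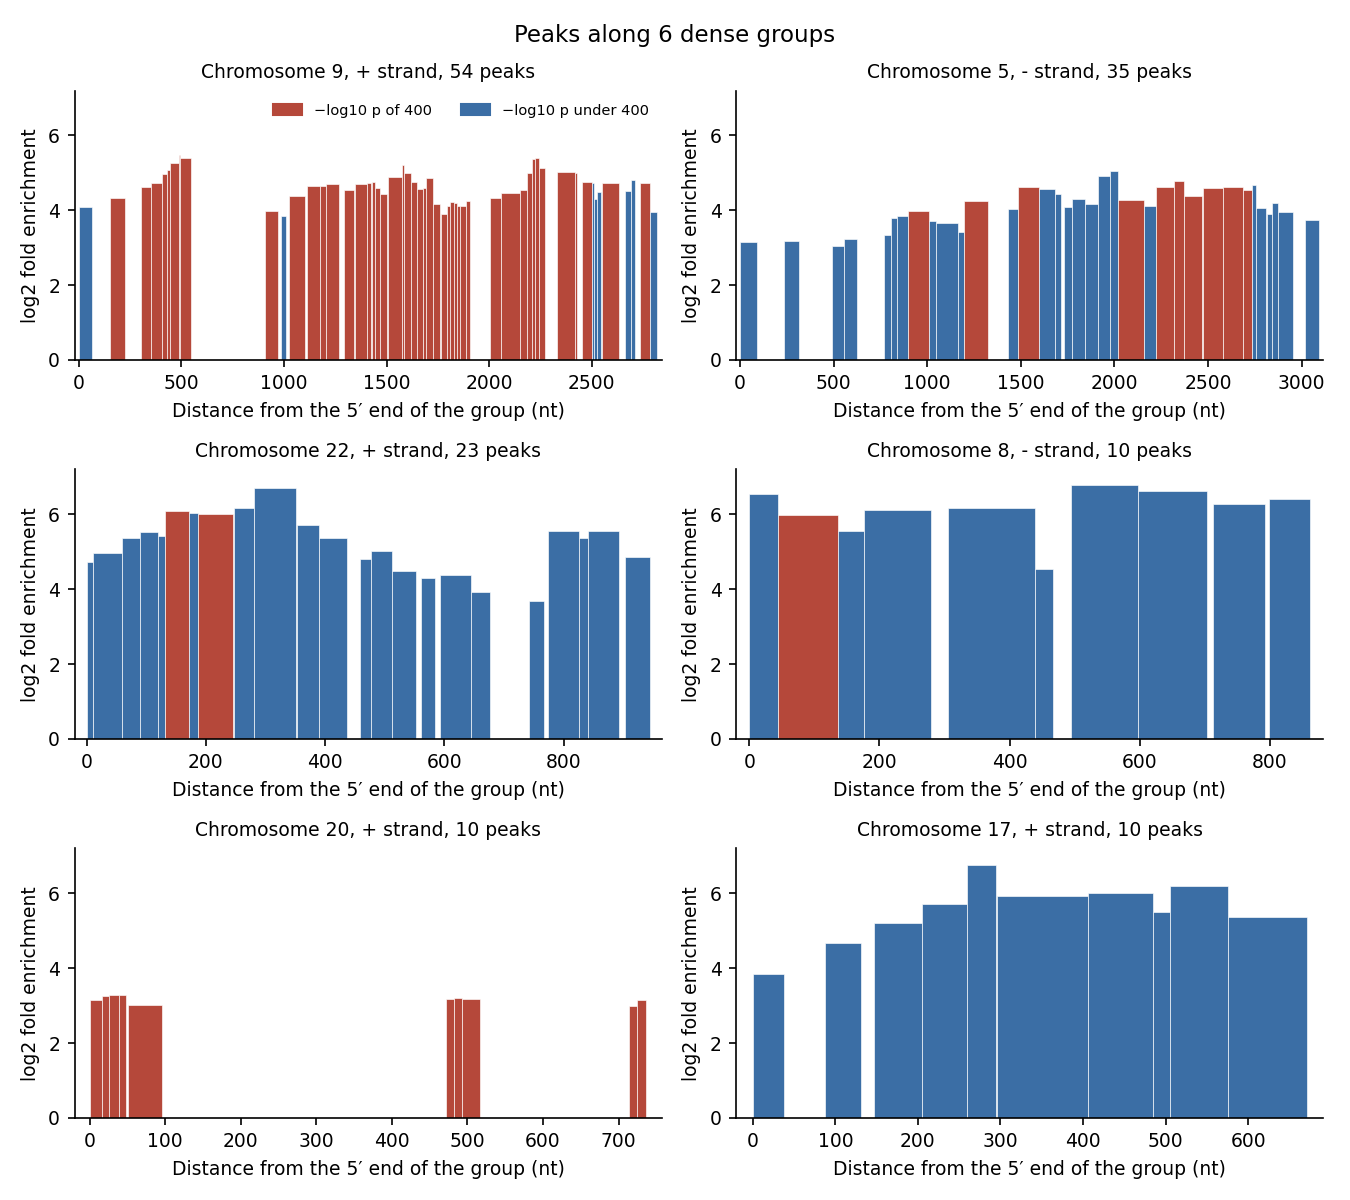
Each panel draws the peaks of 1 dense group as bars, from the 5′ end of the group in nt along the RNA, with the width of the peak as the width of the bar and its log2 fold enrichment as the height; red bars have a −log10 p of 400. The groups of 54 and 35 peaks and the most crowded group of 23 are followed by the groups with the highest and the lowest median and by the chromosome 17 group with a median of 5.61; the panel for chromosome 20 is flat, between 3.0 and 3.29, and the others have summits and dips.

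The 5 groups with the highest median enrichment had 10, 11, 10, 19 and 10 peaks. By number of peaks, the median log2 fold enrichment of the members was 3.97 in groups of 10, 4.06 in groups of 11 or 12, 4.03 in groups of 13 to 15, 4.44 in groups of 16 to 19 and 4.27 in groups of 20 or more. Over the 189 groups, the number of peaks and the median enrichment had a Spearman's rho of 0.11 and a Pearson's r of 0.13. The group with the highest median lies on chromosome 8, − strand, at chr8:134509822-134510683, with 10 peaks in 862 nt and log2 fold enrichments of 4.53 to 6.79 around a median of 6.22, a 74.3-fold excess. Of its 10 peaks 9 stood at 5.56 or above, and the exception was a peak of 27 nt at 4.53. Its highest peak, at chr8:134510086-134510189, had 6.79, which is 111-fold, and ranked 1 of the 24831 human peaks. The group at chr19:40378479-40379704, + strand, had 11 peaks with a median of 5.85, and the group at chr17:1897974-1898644, + strand, had 10 peaks with a median of 5.61. The last of these had its lowest peak, 3.84, at the 5′ end and climbed over 4 further peaks to 6.76. The group at chr17:17228938-17230133, − strand, with 19 peaks and a median of 5.53, and the group at chr5:113043653-113044518, − strand, with 10 and 5.51, complete the 5. In 4 of the 5, every peak was called.

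The strongest human peaks were often members. Of the 10 peaks with the highest log2 fold enrichment in the list 7 were members, of the highest 20 there were 9 and of the highest 100 there were 49. Members were 9.60% of the whole list. The chromosome 8 group alone gave the peaks ranked 1, 6 and 10, so these counts hold several peaks of 1 place. The enrichment is of the comparison that gave the members, so nothing is read from these shares. The first 5 members ranked 1, 3, 4, 5 and 6 in the list and had values of 6.79, 6.76, 6.70, 6.68 and 6.63. They came from 4 groups, since the chromosome 8 group gave both the first and the last. The fourth, at chr5:177490220-177490255, − strand, belonged to a group of 10 peaks in 626 nt that covered its span without a gap and ran from 3.35 to 6.68.

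The 5 groups with the lowest medians lay close to the limit of the list, where a log2 fold enrichment of 3.0 is the lowest value. The lowest was on chromosome 20, + strand, at chr20:63284048-63284784, with 10 peaks between 3.0 and 3.29 and a median of 3.18. Its peaks had a median width of 12 nt and covered 21.8% of its 737 nt, in 3 clumps separated by gaps of 377 and 197 nt, and all 10 were at a −log10 p of 400. It had the smallest range of any dense group, 0.29. The group at chr20:419807-420630, + strand, was of the same kind, with 14 peaks from 3.05 to 3.67, all 14 at 400. The groups at chr22:41245630-41246460, chr11:47467928-47469081 and chr15:72203275-72204400, all on the − strand, had 11, 14 and 14 peaks with medians of 3.18, 3.33 and 3.34 and 2, 0 and 6 peaks at 400. In 4 of the 5 groups no peak was called and in the other 1 was.

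The 5 shortest groups spanned 547 to 626 nt. The shortest, at chr19:10686749-10687295, + strand, had 10 peaks with a median width of 27.5 nt and enrichments of 3.0 to 3.88. The groups at chr10:116888509-116889094, − strand, with 12 peaks, and chr5:177489847-177490472, described above for its peak of 6.68, were the 2 of the 189 in which peaks covered every nt. The group at chr21:46441911-46442467, + strand, had 10 peaks with a median of 3.98 and the group at chr1:206455041-206455645, + strand, 10 with a median of 4.18. Shortness went with low as well as high enrichment, with medians from 3.34 to 5.10 over the 5.

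Inside the groups, peaks mostly touched. Of 2196 steps from a member to the next, 1293 (58.9%) had no base between the peaks, 738 had 1 to 100 nt and 165 had more, up to 486 nt. No members overlapped. The share of touching steps was 40.6% in groups of 4 to 9 and 30.2% in groups of 2 or 3. Peaks covered a median of 75.9% of a group's span, at least 90% in 38 groups and under 50% in 13. A group was made of a median of 5 unbroken stretches (quartiles 4 and 7), the longest of which had a median of 4 peaks and at most 18. The peak caller divides a stretch of reads into peaks, and its part in these counts was not tested. With touching peaks joined into 1 region first, 9 groups of 10 or more regions were left, holding 108 regions. Of these, 5 lay at groups of 20 or more peaks named above, both on chromosome 9 and those on chromosomes 5, 12 and 22 (the last on the − strand), and 4 at smaller groups on chromosomes 1, 3, 16 and 21.

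Enrichment differed less inside a group than between groups, though not by much. The SD of the log2 fold enrichment was 0.50 within groups, 0.55 for the medians of the groups and 0.71 over all members. Of the variance, 54.8% lay between groups, a share not corrected for the number of groups. The range from the lowest to the highest peak of a group had a median of 1.53 (quartiles 1.20 and 1.82) and reached 3.33. Touching neighbours differed by a median of 0.30, neighbours 1 to 100 nt apart by 0.36, and those farther apart by 0.51. Values thus drifted along a group and differed more with distance. Groups with a higher median also had a wider range, with a Spearman's rho of 0.57 and a Pearson's r of 0.52 over the 189 groups. The limit of 3.0 of the list leaves a group with a low median less room below it.

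Most groups had more than 1 summit. A summit was counted as a local maximum at least 0.5 on the log2 scale above the lowest value on each side. That lowest value was sought up to a higher peak or the end of the group. The ends were set at the lowest value of the list. By this count, 32 groups had 1 summit, 90 had 2, 52 had 3 and 14 had 4 or more. The flat chromosome 20 group had 0. The most, 6, were in the group of 21 peaks at chr17:7879955-7882370. Neighbouring summits in a group were a median of 387 nt apart, with quartiles of 260.5 and 564 nt.

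The outermost peaks were more often below than above the inner peaks of their group. The 5′ end peak was below the median of the inner peaks in 128 of the 189 groups and the 3′ end peak in 120. The 5′ and 3′ end peaks had medians of 3.83 and 3.91, and the medians of the inner peaks of each group had a median of 4.11. The lowest peak of a group was an end peak in 62 groups (32.8%) and the highest in 13 (6.88%), while end peaks were 15.8% of the members. In wider bins the difference was hardly seen in the medians but was seen in the place of the lowest peak. In 5 equal bins of the span from 5′ to 3′ the members had median log2 fold enrichments of 4.04, 4.14, 4.17, 4.03 and 4.07. The highest peak fell in these bins in 38, 47, 34, 34 and 36 groups, and the lowest in 48, 29, 34, 30 and 48. A peak beyond an end that is under the list's limit is not listed, so the ends are also where the list's threshold falls.

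The dense groups were spread over 22 of the 23 chromosomes of the list, 104 on the + strand and 85 on the − strand. Members made up 18.8% of the peaks of chromosome 21, 18.7% of chromosome 22, 17.9% of chromosome 9, 17.1% of chromosome 20 and 14.9% of chromosome 19. At the other end they were 3.10% of chromosome X, 2.00% of chromosome 18 and 1.79% of chromosome 14, and chromosome 13, with 475 peaks, had no dense group. Gene-dense chromosome 19 had 14 groups with 176 members at a median log2 fold enrichment of 4.26. Chromosomes 4, 13 and 18, poor in genes, had 100 members among 1970 peaks (5.08%). Of these, 89 were on chromosome 4, at a median log2 fold enrichment of 4.01. They were 9.42% of the peaks of chromosome 4, close to the 9.60% of the whole list. The low pooled share thus came from chromosomes 13 and 18. The share of chromosome 9 rests in part on its group of 54 peaks. Peaks of a group share their place, so these shares count few places: 8 groups on chromosome 21 and 1 each on chromosomes 14 and 18.

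**Figure D5:**
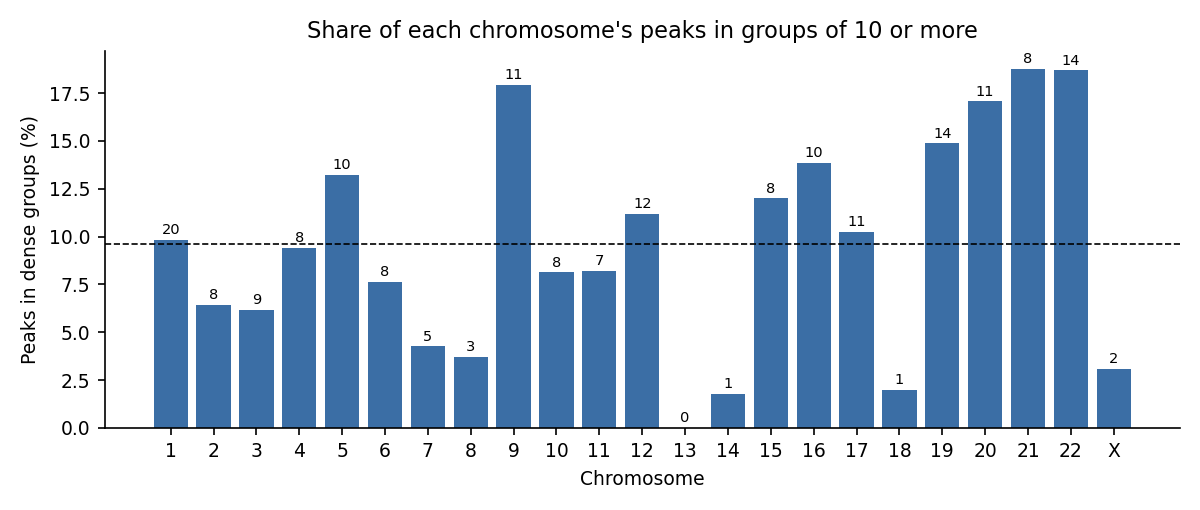
Bars give, for each chromosome, the percentage of its human peaks that lie in groups of 10 or more, with the number of such groups above each bar and the share over the whole list, 9.60%, as a dashed line. Chromosomes 21, 22, 9 and 20 are highest, at 17.1% to 18.8%, and chromosome 13 is at 0.

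Further peaks of the same strand lay near some dense groups. Another peak lay within 10 kb of 103 groups (54.5%), and the median distance to the nearest other peak was 8038 nt. The same share was not computed for smaller groups, so it is not read as a trait of the dense groups. A second dense group lay within 10 kb of 15 groups and within 100 kb of 26. The closest were on chromosome 21, + strand, where chr21:43983654-43984376 and chr21:43985420-43986070 were separated by 1043 nt and had medians of 3.77 and 4.87. Chromosome 22, − strand, held 3 in a row at chr22:19888049-19888815, chr22:19893117-19894127 and chr22:19899390-19900383, with 10, 12 and 10 peaks and medians of 4.47, 4.02 and 4.39. No group had a peak of the opposite strand inside its span (0 of 189), a count that was also not made for smaller groups.

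The minigene gave a dense group in only 1 of its 2 lists. For +Dox over No Dox, the comparison that gave the human peaks, the 7 minigene peaks formed groups of at most 2. For WT over the line without both clusters, each given doxycycline, the same joining gave 1 group of 16 peaks, at 30802 to 31337 of the minigene, and 1 single peak elsewhere. The group of 16 spanned 536 nt, shorter than all 189 human groups, with a median width of 23.5 nt, 12 touching steps and 95.9% of its span covered. The paper places the significant areas of this comparison at Cluster 1 and Cluster 2, which that line lacks. The size of a removed stretch limits such a span, so its shortness is not read as a trait of binding. The log2 fold enrichment of this group, 3.70 to 8.30 with a median of 6.24, is over a line whose minigene lacks Cluster 1 and Cluster 2. It cannot be set against the human values, which are over No Dox cells.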

How the data were processed

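Human RbFox1 eCLIP peaks of 2 +Dox and 2 No Dox libraries of the WT minigene line were analysed, with both minigene lists for comparison. The authors removed molecular identifiers and adapters with UMI-tools and cutadapt, discarded reads of repeats and rRNA, mapped the rest with STAR, collapsed PCR duplicates and called peaks with CLIPper. The deposited lists hold for each peak a −log10 p-value (from a chi-square test with Yates' correction, or Fisher's test for low reads) and a log2 fold enrichment, from reads normalized to the total of the library. Replicates were merged by the authors, with settings not given in the sources used here. The human list holds values of at least 3.0 in both columns. Reads in repeats were removed and multiple peaks may share 1 stretch of reads, which can change counts of peaks.

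Positions were counted from 1 and peaks were joined, counted and summarised with Python 3.11.15, pandas 2.3.3, numpy 2.4.6 and scipy 1.17.1, and plotted with matplotlib 3.10.9. No test was run, since the members were chosen by position among peaks called in the same comparison and no value for a single library was held. The grouping was tested on simulated data. Named groups were those with at least 20 peaks, the 5 highest and 5 lowest by median log2 fold enrichment and the 5 shortest, with the 5 highest members; neighbouring groups and the minigene were named after their values were seen. The members and lists were chosen with earlier results of these data known. The planned gene lists, gene regions, motifs and sequences were not analysed here.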

Additional observations from a re-analysis of the deposited data

How the results depend on the processing

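No paired analysis was possible because no result comes from a test and replicates are merged in the lists. No replicate could be left out for the same reason. The 2385 members and 189 groups became 1484 and 118 when peaks were joined at 100 nt, 562 and 40 with peaks kept only at 4 or more for the log2 fold enrichment and 1e-05 or less for p, 4314 and 420 with groups of at least 8, 619 and 31 with groups of at least 15, and 108 and 9 with touching peaks joined first. Joining at 1000 nt (2833 and 223), using both strands together (2398 and 190), leaving out the group of 54 peaks (2331 and 188) or leaving out peaks under 20 nt (2038 and 167) moved the counts by less than 1.5 times; the last 2 alternatives were chosen after seeing the data. The median log2 fold enrichment of 4.08 was 4.19 at 100 nt, 4.03 with groups of at least 8, 4.35 with groups of at least 15, 4.07 over group medians, 4.07 without the group of 54 peaks, 4.10 without peaks under 20 nt and 4.08 at 1000 nt. The alternatives for motifs and gene regions were not run, since no human sequence or annotation was used. The unknown depth limits every result: a place with fewer peaks cannot be told from one with fewer reads.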
